A study of Mus musculus with 4 samples.

Results

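The genes described here are the hormones of the pancreatic islets and a few genes that mark the insulin-producing beta cell. The 10 genes named were Ins1 and Ins2 (insulin), Iapp (islet amyloid polypeptide), Slc2a2, G6pc2 and Slc30a8 (beta cell glucose and zinc handling), and Gcg, Sst, Ppy and Pyy (glucagon, somatostatin, pancreatic polypeptide and peptide YY). Each was represented by its row with exactly 1 gene symbol in the platform annotation, and 9 of the 10 had such a row, out of 22180 genes measured that way. Ins1 had none and was not analysed here, so insulin rests on Ins2. RNA came from the whole pancreas of mice aged 8 weeks, taken at 5 days of cerulein treatment in both groups, given intraperitoneally at 100 µg/kg as 6 injections per day on alternate days. Cerulein is a cholecystokinin analog that injures the enzyme-secreting acinar cells. The groups were Ifrd1 null mice (n = 2 arrays) and wild-type mice (n = 2 arrays). Ifrd1 encodes a transcriptional co-regulator. Strain, sex, the design of the null allele and the cells in which it acts are not given in the sources used here, and every mouse received cerulein.

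Islets are small clusters of endocrine cells scattered among the acinar tissue. Beta cells take up glucose, metabolise it, and release insulin from granules in which insulin is packed with zinc, together with amyloid polypeptide. Alpha cells make glucagon, which opposes insulin by raising blood glucose, delta cells make somatostatin, which restrains both, and PP cells make pancreatic polypeptide. In RNA of a whole organ, fewer cells of a type and less RNA per cell cannot be told apart.

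All 5 beta cell genes among the measured members were lower in both Ifrd1 null arrays than in either wild-type array. They were lower by 0.27 to 0.83 on the log2 scale, with a median difference of -0.65. Beta cell genes outside the members did not follow as a list. Over 13 measured regulators and receptors of the beta cell the median was -0.06, with 8 lower and 5 higher. The hormones of the other islet cells did not share the direction of the 5 beta cell members. Glucagon and somatostatin were higher in both null arrays, by 0.24 and 0.27, with the somatostatin groups only 0.03 apart. The groups overlapped for pancreatic polypeptide and peptide YY. The members were split into beta cell genes and other hormones after their values were seen, so the contrast between these groups is a description. No member passed limma's test at an adjusted p under 0.05 (0 of 9, adjusted p from 0.721 to 0.861), a threshold passed by 0.00451% of all genes (1 gene, the Y-linked Uty). At an unadjusted p under 0.05, 4 of the 9 members were lower and 0 were higher, against 3.63% and 3.27% of all genes. The groups did not overlap, with the null lower, for 5 of 9 members, against 19.7% of all genes, and with the null higher for 2 of 9, against 16.1%. Genes of the members' brightness were more often lower in the null than dim genes. Among the 5756 genes whose mean level lay within the range of the members, 34.1% were lower without overlap and 5.92% higher without overlap, 6.17% were lower at an unadjusted p under 0.05 and 0.817% were higher, and the median difference was -0.09.

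**Figure D1:**
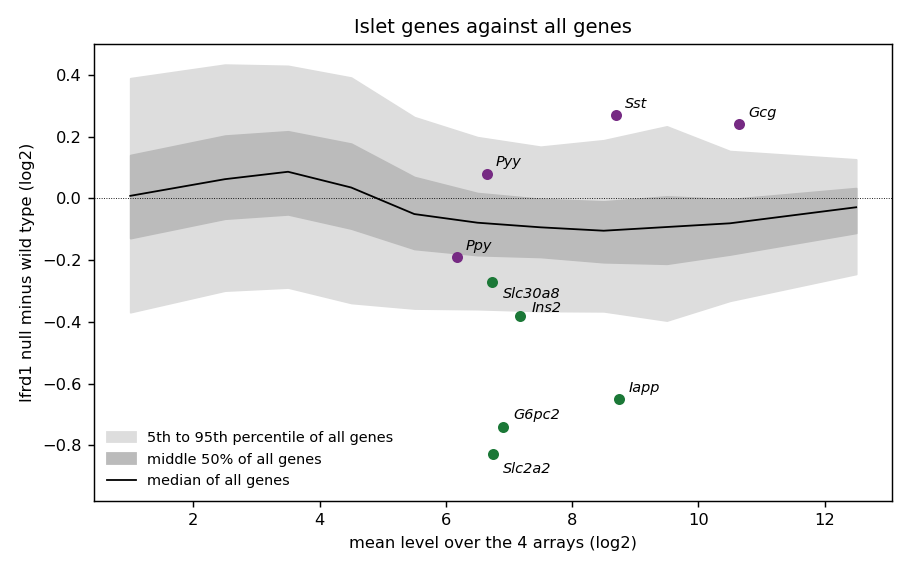
Difference between genotypes (Ifrd1 null minus wild type, log2, vertical axis) against the mean level over the 4 arrays (log2, horizontal axis) for the 9 islet genes, green for beta cell genes and purple for the other hormones. The bands hold the middle 50% and the 5th to 95th percentile of all genes in bins of level. Iapp, G6pc2 and Slc2a2 lie well under the lower band, Ins2 lies at its edge, and Gcg and Sst lie above the upper band.

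The regions just before the transcript start are shown for members whose groups did not overlap and whose windows hold a searched motif, with the lower genes Iapp and G6pc2 first and the higher genes Gcg and Sst after them. Each line gives the 250 bases before a RefSeq start in assembly GRCm38.p6, read along the gene's own strand, with motif matches in capitals. G6pc2 has a pair of start windows in RefSeq, and the one shown is the downstream one, 8876 bases from the gene's annotated 5′ end. The window at that 5′ end held none of the motifs. The only Sst window has its start 498 bases from the annotated 5′ end of Sst.
Iapp, chr6:142298175-142298424, strand plus: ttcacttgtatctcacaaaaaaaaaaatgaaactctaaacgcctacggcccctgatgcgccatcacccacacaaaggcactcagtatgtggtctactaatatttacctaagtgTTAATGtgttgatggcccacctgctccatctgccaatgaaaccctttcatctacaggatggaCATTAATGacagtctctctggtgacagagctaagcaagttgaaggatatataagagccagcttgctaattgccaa
G6pc2, downstream start, chr2:69219699-69219948, strand plus: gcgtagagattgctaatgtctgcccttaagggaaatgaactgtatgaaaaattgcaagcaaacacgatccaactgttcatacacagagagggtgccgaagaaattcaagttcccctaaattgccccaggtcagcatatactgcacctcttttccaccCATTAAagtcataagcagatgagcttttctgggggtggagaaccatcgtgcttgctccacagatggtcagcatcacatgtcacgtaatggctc
Gcg, chr2:62483654-62483903, strand minus: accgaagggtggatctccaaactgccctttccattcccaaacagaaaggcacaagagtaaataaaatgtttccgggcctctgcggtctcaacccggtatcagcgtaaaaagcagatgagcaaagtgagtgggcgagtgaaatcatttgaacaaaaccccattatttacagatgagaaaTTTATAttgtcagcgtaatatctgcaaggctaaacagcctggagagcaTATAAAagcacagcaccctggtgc
Sst, chr16:23890845-23891094, strand minus: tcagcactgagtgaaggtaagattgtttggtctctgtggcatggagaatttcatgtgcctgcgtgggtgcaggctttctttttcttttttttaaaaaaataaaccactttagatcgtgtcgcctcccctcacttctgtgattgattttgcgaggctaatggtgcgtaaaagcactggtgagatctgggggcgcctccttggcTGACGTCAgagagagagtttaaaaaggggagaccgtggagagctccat

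The motifs searched on both strands were the A box core TTAATG, which beta cell homeodomain factors can bind, the E box GCCATCTG of the insulin promoters, the cAMP response element TGACGTCA and the TATA box TATAAA. RefSeq windows were available for 8 of the 10 named genes, Ins2 and Slc30a8 being the exceptions. The Iapp window held 3 A box cores, with first bases at -137, -75 and -73 from the start, of which the middle one is on the opposite strand and overlaps the last. The downstream G6pc2 window held 1 on the opposite strand at -93. An A box core was present in 7.91% of all 32851 windows of this length. Sst held the cAMP response element at -48, an element known for its part in somatostatin transcription, which 1.55% of windows contain. Gcg held TATA boxes at -24 and, on the opposite strand, at -72, and Ppy held 1 at -31, against 12.4% of windows. The insulin E box was present in the Ins1 window, at -86, and in 1.11% of all windows. Slc2a2 and Pyy held none of the 4 motifs. A match describes these letters only.

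Among the secreted products of the beta cell, Ins2, which encodes insulin, was at 6.95 and 7.02 in Ifrd1 null arrays 1 and 2, against 7.40 and 7.35 in wild-type arrays 1 and 2 (log2 levels, as all levels below). Both null values lay under both wild-type values, and the replicates of each genotype differed by at most 0.07. The difference was -0.38 ± 0.10 (limma, SE), or 1.30-fold lower, with an adjusted p of 0.721. Insulin genes are close copies of one another, and whether the probes of this row also take up Ins1 RNA could not be checked. Iapp, whose peptide is stored and released together with insulin, was at 8.54 and 8.31 in the null arrays, against 9.20 and 8.94 in wild type. The groups were apart by 0.41, more than the distance between replicates of either genotype (0.22 in the null and 0.26 in wild type). The difference was -0.65 ± 0.15 (SE), or 1.57-fold lower (limma adjusted p = 0.721).

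The pair of genes that act on glucose had the most negative differences of the 9. Slc2a2 encodes GLUT2, the transporter through which mouse beta cells take up glucose, and was at 6.08 and 6.57 in the null arrays, against 7.28 and 7.03 in wild type. The null arrays differed from each other by 0.49, about as much as the 0.46 that separated the groups. The difference was -0.83 ± 0.21 (SE), or 1.78-fold lower (limma adjusted p = 0.721). G6pc2 encodes the islet glucose-6-phosphatase, which undoes the first step of glucose use, and was at 6.46 and 6.58 in the null arrays, against 7.45 and 7.09 in wild type. Here the spread lay in wild type, whose arrays were 0.36 apart, and the groups were 0.51 apart. The difference was -0.74 ± 0.16 (SE), or 1.67-fold lower, with a limma adjusted p of 0.721 and the smallest unadjusted p of the members (0.00772, rank 146 among all genes). Slc30a8 encodes ZnT8, which loads zinc into insulin granules, and was at 6.54 and 6.66 in the null arrays, against 6.98 and 6.77 in wild type. Its groups were only 0.11 apart, less than the 0.21 between the wild-type arrays. Its difference was -0.27 ± 0.13 (SE), with a limma adjusted p of 0.734, and it was -0.17 without wild-type array 1 and -0.18 with cyclic loess.

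**Figure D2:**
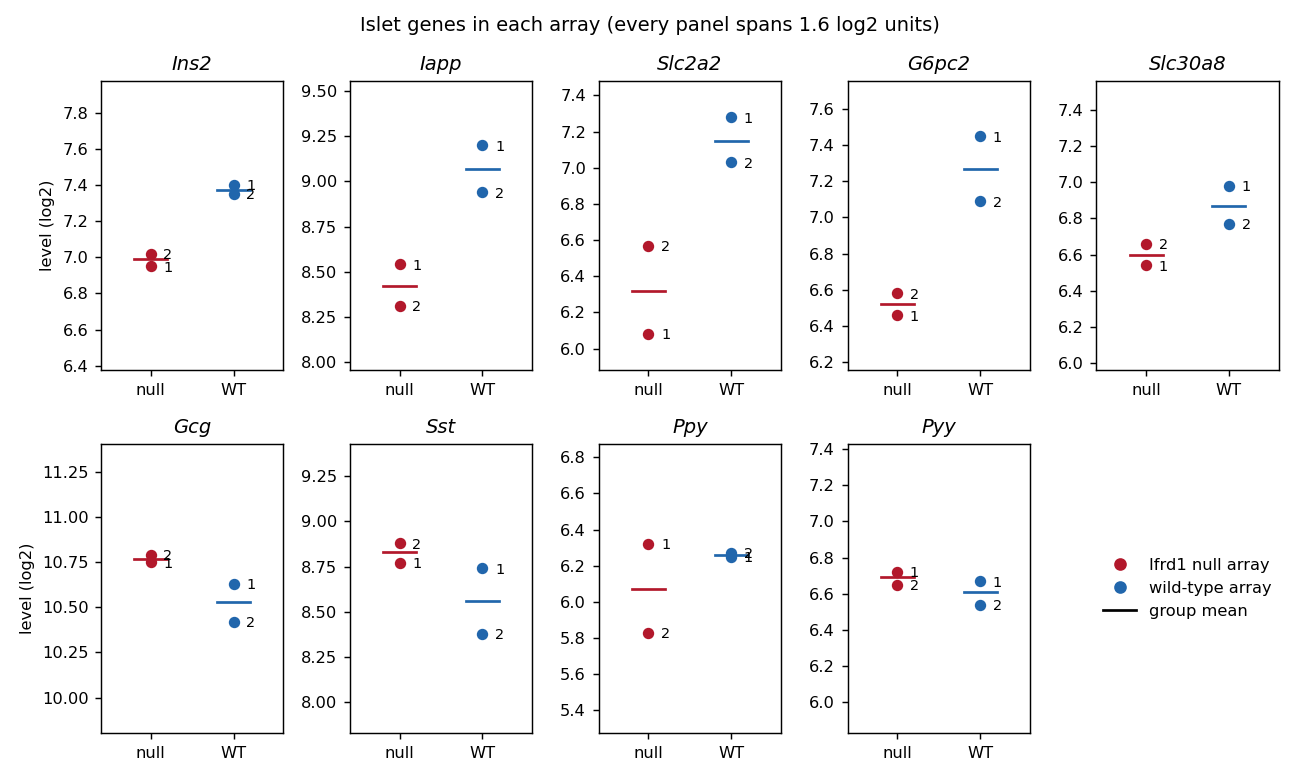
Level (log2, vertical axis) of each islet gene in each array, Ifrd1 null at the left and wild type at the right of each panel, with replicate numbers beside the points and lines at the group means. For Ins2, Iapp, Slc2a2, G6pc2 and Slc30a8 both null points lie under both wild-type points, for Gcg and Sst both lie above them, and for Ppy and Pyy the groups overlap.

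The hormones of the other islet cells followed another pattern. Gcg, the gene for glucagon and its sister peptides, was at 10.75 and 10.79 in the null arrays, against 10.63 and 10.42 in wild type. Both null values were the higher ones, by 0.12, while the wild-type arrays differed by 0.22. The difference was 0.24 ± 0.12 (SE; limma adjusted p = 0.745). Sst, the gene for somatostatin, was at 8.77 and 8.88 in the null arrays, against 8.74 and 8.38 in wild type. Only 0.03 separated the groups, and without wild-type array 2 the difference of 0.27 ± 0.16 (SE) was 0.09, so that array decides its size (limma adjusted p = 0.761 over all arrays). Ppy and Pyy encode related peptides and are next to each other among the protein-coding genes of chromosome 11. Ppy was at 6.32 and 5.83 in the null arrays, against 6.25 and 6.27 in wild type. Null array 1 was thus above both wild-type arrays and null array 2 below them, and the difference of -0.19 ± 0.19 (SE) was 0.06 without null array 2. Pyy was at 6.72 and 6.65 in the null arrays, against 6.67 and 6.54 in wild type, a difference of 0.08 ± 0.11 (SE) with overlapping groups.

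**Figure D3:**
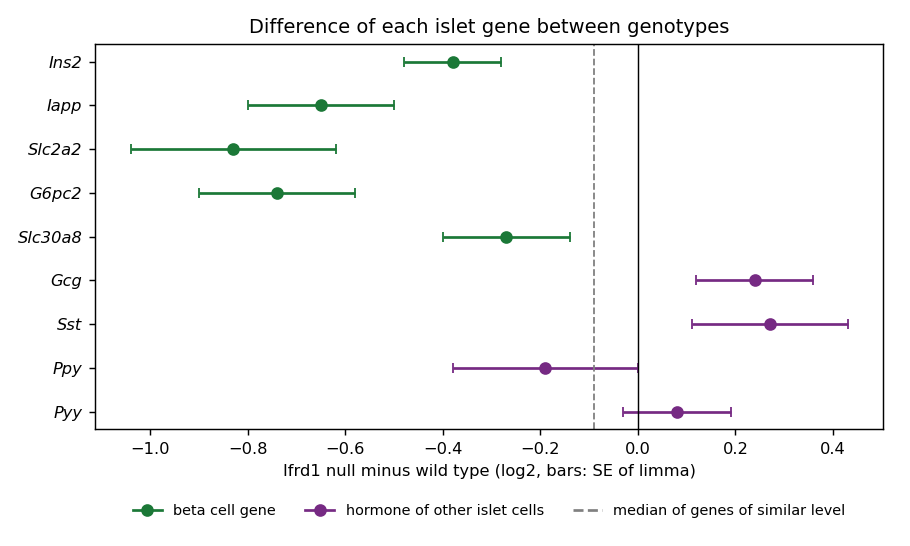
Difference of each islet gene between Ifrd1 null and wild type (log2, horizontal axis, points), with limma's standard error as bars and n = 2 arrays per genotype. The 5 beta cell genes lie between -0.83 and -0.27, and the dashed line marks the median of genes of similar level, -0.09.

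Beta cell genes and glucagon can be set against each other within an array, since both come from the same RNA. Taking each gene relative to its own wild-type mean, Iapp minus Gcg was -0.77 and -1.02 in null arrays 1 and 2, against 0.02 and -0.02 in wild-type arrays 1 and 2. For Ins2 minus Gcg the values were -0.65 and -0.61 in the null, against -0.08 and 0.08 in wild type. G6pc2 minus Gcg was at -1.03 and -0.95 in the null, against 0.07 and -0.07 in wild type. The order was the same for Slc2a2 minus Gcg (-1.30 and -0.85 in the null, 0.01 and -0.01 in wild type). It was also the same for Slc30a8 minus Gcg (-0.56 and -0.48 in the null, 0.00 in each wild-type array). In the single genes, wild-type array 1 was above array 2 in 8 of the 9 members, whether beta cell gene or other hormone. That held for 10010 of all 22180 genes, and for 2173 of the 5756 within the members' range of level. The values relative to Gcg are a description and were not tested. They show unequal differences of the 2 genes, not that either was unaltered.

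Other islet genes, listed by role, had a median difference near 0. Over 65 of them it was -0.02, with 36 lower and 29 higher in the null and differences from -0.39 to 0.62. Each of the lists held genes below the array median in all arrays, where a signal above background is not shown. The groups did not overlap for 12 lower and 6 higher genes, no larger shares than the 19.7% and 16.1% of all genes. None of the 65 passed limma's test at an adjusted p under 0.05. At an unadjusted p under 0.05, 3 of the 65 were lower and 0 were higher, against 3.63% and 3.27% of all genes. The proteins of peptide granules and the enzymes that process prohormones, which all islet cells and other endocrine cells use, had a median of -0.11, with 12 of 15 measured genes lower and 6 of these without overlap. Of all genes, 11676 of 22180 were lower and 19.7% were lower without overlap. Of genes within the members' range of level, 4248 of 5756 were lower and 34.1% were lower without overlap. Many of the 15 are dimmer than that range, so neither background matches the list. Of those within the range, Chga, Scg2, Scg3, Cpe and Pam were lower without overlap, Cpe and Pam by only 0.01 and 0.03. Ptprn2 and Ero1b, also within it, had overlapping groups. The list was not tested. Chga, the granule matrix protein chromogranin A, was at 8.36 in each null array, against 8.66 and 8.71 in wild type, a difference of -0.32 ± 0.10 (SE). Ptprn, a granule membrane protein known as the autoantigen IA-2, was at 5.37 and 5.23 in the null, against 5.68 and 5.61 in wild type, a difference of -0.35 ± 0.11 (SE). Both had a limma adjusted p of 0.721. Cpe, the carboxypeptidase that trims prohormones and the gene with the highest mean of that list, differed by -0.11 ± 0.11 (SE).

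Regulators and receptors of the beta cell did not follow the 5 beta cell genes as a list (median -0.06, 8 of 13 lower, 1 without overlap). However, 4 of the 13 lay below the array median in all arrays, so their small differences may not show a lack of change. The 1 gene without overlap was Ucn3, a peptide of mature beta cells. It was at 4.83 and 4.91 in the null arrays, against 5.13 and 5.24 in wild type, a difference of -0.32 ± 0.11 (SE; limma adjusted p = 0.721). Nkx6-1, a beta cell transcription factor, was at 4.89 and 4.91 in the null arrays, against 4.89 and 5.50 in wild type, so its difference of -0.30 ± 0.23 (SE) came from 1 wild-type array. The insulin gene activators Mafa (0.14 ± 0.12) and Pdx1 (-0.06 ± 0.21) had overlapping groups, as did Glp1r, the receptor of the incretin GLP-1, at 9.59 and 10.56 in the null, against 9.88 and 9.78 in wild type. Mafa and Pdx1 were picked after their values were seen. Ion channels and fusion proteins that couple glucose to release had a median of 0.10, with 3 of 11 lower. Abcc8, the sulfonylurea receptor subunit of the beta cell potassium channel, was at 5.86 and 5.53 in the null, against 5.95 and 6.10 in wild type, a difference of -0.33 ± 0.16 (SE). Syt7, a calcium sensor of granule fusion, was at 0.19 ± 0.10 and Vamp2, a fusion protein, at 0.02 ± 0.14 (differences, SE).

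Transcription factors shared by islet cells had a median of -0.02 (8 of 13 lower), and 7 of the 13 lay below the array median in all arrays, where a signal above background is not shown. Pax6 (-0.17 ± 0.10) and Neurod1 (0.29 ± 0.16), both needed for islet cells, were among those 7, and Foxa2 was at -0.02 ± 0.13 (differences, SE). Alpha cell genes had a median of 0.24, with 5 of 7 measured genes higher. Another 4 on the list were not measured, and 3 of the 7 lay below the array median in all arrays. The median is the value of Slc38a5 (0.24 ± 0.49, SE), whose groups overlapped. It was at 5.34 and 6.75 in the null arrays, against 5.77 and 5.85 in wild type. Ttr, transthyretin, abundant in alpha cells and also made by liver, was at 8.81 and 8.89 in the null arrays, against 8.78 and 8.29 in wild type, which is the pattern of Gcg and Sst with wild-type array 2 as the low one. Its difference was 0.31 ± 0.19 (SE). Sh2d2a, which T cells express too, was at 0.62 ± 0.31 but below the array median in 3 of 4 arrays. Delta, PP and epsilon cell genes had a median of -0.01 (3 of 6 lower), with the delta cell factor Hhex at -0.08 ± 0.11, Ghrl, the ghrelin gene, at 0.26 ± 0.19 and its receptor gene Ghsr at 0.13 ± 0.15 (differences, SE). Ghrl and Ghsr lay below the array median throughout.

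**Figure D4:**
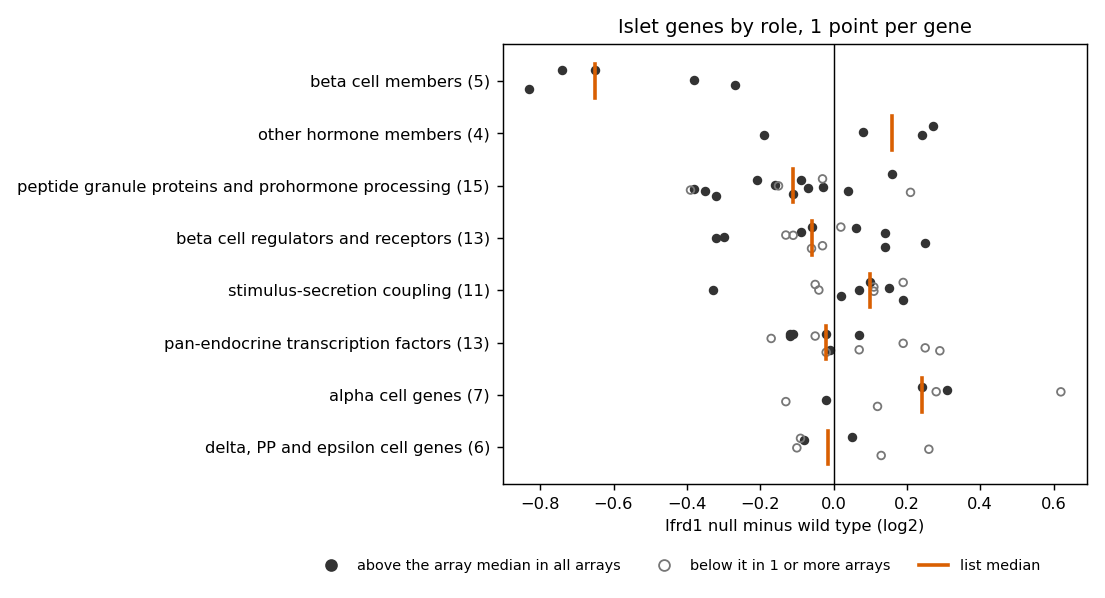
Difference between Ifrd1 null and wild type (log2, horizontal axis) for every measured gene of 8 islet groups, with the number of genes in brackets and an orange bar at the group median. Open points were below the array median in 1 or more arrays. The beta cell members have a median of -0.65, the other lists lie between -0.11 and 0.24.

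Several sample features moved with genotype or differed between arrays. Ifrd1 itself was at 6.99 and 7.09 in the null arrays, against 9.04 and 9.07 in wild type. The female-expressed RNA Xist was at 10.15 and 9.58 in the null arrays, against 2.56 and 3.54 in wild type, and the Y-linked Uty was at 2.25 and 2.36 in the null, against 6.41 and 6.40 in wild type, so for every islet gene genotype and sex as read from these RNAs cannot be told apart. Acinar enzymes were bright in all arrays (mean log2 level of 18 genes 12.14 and 12.64 in the null, 12.37 and 12.32 in wild type). They differed in sign between the null arrays, at -0.25 in null array 1 and 0.24 in null array 2 relative to the wild-type mean (list medians). Leukocyte markers (0.58 and -0.52) and adipocyte markers (0.69 and -0.34) differed between the null arrays the other way. The beta cell members had medians of -0.54 and -0.59 in the same arrays, and means of -0.63 and -0.52. Single genes were less alike: Slc2a2 was at -1.08 and -0.59, and Iapp at -0.54 and -0.76. Duct markers (-0.32 and -0.44, 8 of 9 lower) and endothelial markers (-0.20 and -0.23, 8 of 8 lower) were lower in both null arrays, as the beta cell members were. Of all genes, 11676 of 22180 were lower, and of those at or above the median level 7463 of 11090. Within the members' range of level 4248 of 5756 were lower. The duct and endothelial markers included Krt19, a duct keratin (-0.59 ± 0.12), and Plvap, an endothelial membrane protein (-0.60 ± 0.15; differences, SE). Their part in the beta cell values was not tested.

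**Figure D5:**
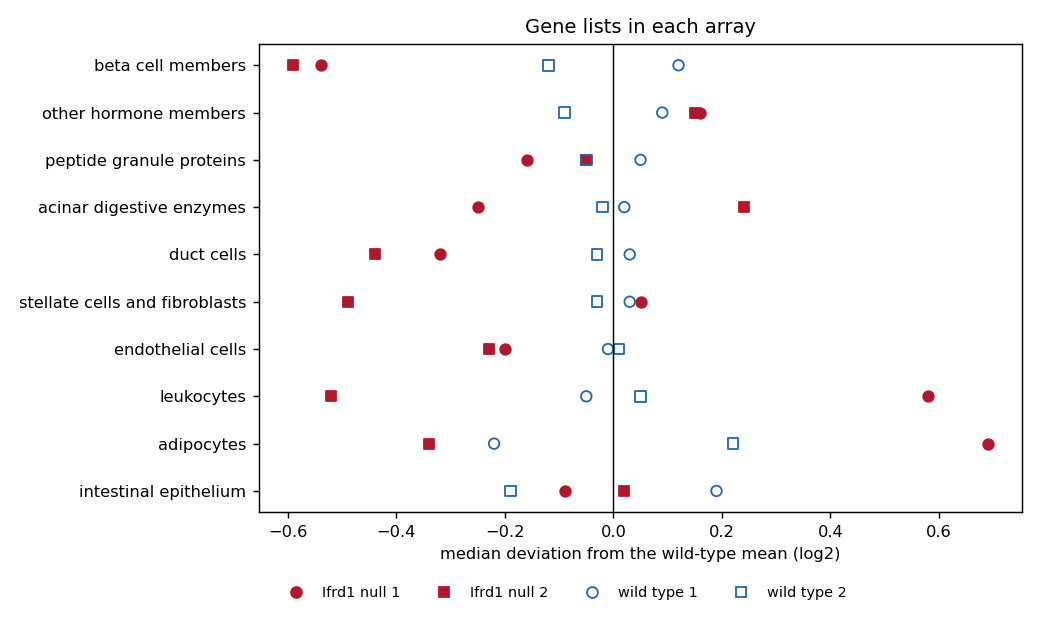
Median deviation of each gene list from the wild-type mean (log2, horizontal axis) in each array, filled red for Ifrd1 null and open blue for wild type. The beta cell members stand at -0.54 and -0.59 in the null arrays, against 0.12 and -0.12 in wild type, while leukocyte, adipocyte and acinar lists have null arrays on opposite sides of 0.

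Gcg, Sst and Pyy are also made by endocrine cells of the gut, and Slc2a2 by its absorptive epithelium. Intestinal epithelium markers had a mean log2 level of 4.16 and 4.29 in the null arrays, against 4.79 and 4.14 in wild type, so wild-type array 1 was the high one. Vil1, the brush border protein villin, was at 4.02 and 4.38 in the null, against 5.46 and 4.88 in wild type. Of the 20 markers 12 lay below the array median in all arrays. Anpep, an aminopeptidase and the marker with the highest mean, was at 10.56 and 10.90 in the null, against 10.62 and 10.53 in wild type. Without wild-type array 1 the difference of Slc2a2 was -0.71, that of G6pc2 -0.57 and that of Iapp -0.52. Other genes of gut endocrine cells had mean levels of 3.66 and 3.88 in the null, against 3.84 and 3.69 in wild type, with 4 of 7 below the array median throughout. Gip, an incretin gene of the gut, was at 5.68 in each null array, against 5.60 and 5.34 in wild type. Insl5 (-0.47 ± 0.16) and Tph1 (-0.33 ± 0.12; differences, SE) were lower in the null but below the array median in all arrays.

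The genes most like Iapp in their pattern over the 4 arrays were sought by the distance between profiles centred on their own means, among 11089 other genes at or above the median level. The nearest was Kcnn3, a calcium-activated potassium channel (distance 0.048 log2 units), at 4.76 and 4.57 in the null arrays, against 5.50 and 5.22 in wild type, followed by Oaz2 (0.100), an antizyme of polyamine synthesis, and Ephx1 (0.111), an epoxide hydrolase. For G6pc2 they were Penk (0.134), the proenkephalin gene, at 7.32 and 7.49 in the null, against 8.19 and 8.00 in wild type, then Nat8f4 (0.176) and the intestinal glucose transporter gene Slc5a1 (0.186). For Gcg they were Vmn2r58 (0.014), Zcchc3 (0.036) and Sra1 (0.037). Within a distance of 0.2 there were 27 genes for Iapp, 3 for G6pc2 and 459 for Gcg, so over 4 arrays a small difference like that of Gcg has many matches.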

How the data were processed

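The authors deposited 1 value per array and transcript cluster for 4 Affymetrix arrays of biotin-labelled total RNA, per the labels. These deposited values were read as log2 levels because they lie between 0.218 and 13.9. Log base, background correction, probe summary and normalization are not given in the sources used here. Array medians over all 41345 rows were 4.15 and 4.13 in the null and 4.11 and 4.08 in wild type. Rows with 1 symbol (23521) were reduced to the row with the highest mean per gene, leaving 22180 genes, while 1814 rows with several symbols and 16010 without one were not used. No dim row was left out, and every member lay above the array median in all arrays. Levels of different genes come from different probes, so differences in level between members are not interpreted, and mean level serves only to pick genes to name and as a measure of brightness.

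Groups were compared by limma 3.58.1 (R 4.3.3; lmFit, eBayes) as Ifrd1 null minus wild type over all genes, two-sided, with Benjamini-Hochberg adjustment at 0.05. The fit was tested on simulated data. SE is limma's moderated standard error. The number of arrays limits precision, and p-values measure only the spread between these samples. Members and lists were chosen with earlier results of these data known, so no list was tested. Genes named beside the members were, for each list, the one with the highest mean and the 2 with the smallest unadjusted p, and the text gives those that bear on the islet genes. The genes of like pattern follow a fixed distance rule. Alternatives were quantile normalization, cyclic loess, median centring, a replicate block, eBayes with trend and robust settings, bright genes only, row means and leaving out each array. Promoter sequences are from RefSeq (GRCm38.p6).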

Additional observations from a re-analysis of the deposited data

How the results depend on the processing

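The 5 beta cell genes were lower in the null under all 11 alternatives (5 of 5 each time). Most alternatives could not have changed this sign. For genes whose groups do not overlap, which includes Gcg and Sst, leaving out 1 array keeps it. The block, eBayes, bright-gene and row-mean settings leave these differences as they are. Only quantile normalization, cyclic loess and median centring could have moved the sign. The median difference of the 5 beta cell genes lay between -0.78 and -0.52, both reached by leaving out 1 wild-type array. That of all 9 members lay between -0.38 and -0.18. At an unadjusted p under 0.05 there were 4 beta cell genes over all arrays, and 2 to 3 with 1 array left out: 2 without null array 1, without null array 2 or without wild-type array 1. With quantile normalization and with cyclic loess there were 3, Ins2 missing at an unadjusted limma p of 0.0534 and 0.0563. Sst, Gcg and Pyy kept a positive difference (0.09 to 0.45, 0.14 to 0.35 and 0.02 to 0.17). Ppy changed sign without null array 2 (0.06, against -0.43 without null array 1). No member passed an adjusted p under 0.05 in any alternative (0.473 to 0.985). Over all genes 1 passed, against 4 with cyclic loess, 5 with arrays centred on their medians, 5 with trend and robust eBayes, 0 with bright genes only and 0 with any 1 array left out. With the replicate number as a block 4 genes passed. These were Uty, Eif2s3y, Kdm5d and Xist, joined by Ifrd1 where 5 passed. The block left every member's difference as it was and ended or made no call among them. Deviations of same-numbered arrays correlated with r = -0.035 across genes. This single value cannot show whether same-numbered arrays shared anything beyond the number. Grouping the members into beta cell genes and other hormones was added after their values were seen. The cause of these shifts was not tested. No detection call was used, so signal over background is not known for dim rows.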
